A study of Oryza sativa with 12 samples.

Results

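Leaves of rice overexpressing the aquaporin gene OsPIP2-1 (called PIP2-1 OE below) were compared with the wild-type (WT) leaves labelled as their control, across every gene of the deposited count table. The comparison uses 4 of the 12 libraries of the series, 2 per group, chosen by their labels and by the matching columns of the table. PIP2-1 OE plants carry a transgene in which the maize ubiquitin promoter, active in most tissues, drives OsPIP2-1 fused to a 3xMyc tag. Their WT plants are the untransformed indica variety Pusa Basmati-1, which is also the only variety named for the series. Another pair of Pusa Basmati-1 WT libraries, labelled as the control of an OsPIP2-7 experiment, served as a further reference. The other 6 libraries come from an OsPIP2-7 overexpression line, also under the maize ubiquitin promoter but FLAG-tagged, and from CRISPR-Cas9 knockouts (KO) of OsPIP2-1 and of OsPIP2-7 that no longer hold the T-DNA. Per the labels, leaves were taken at 2.5 months after the plants moved to the greenhouse, and the transgenic plants had been regenerated from culture. Day length, night length and temperature were the same for all 12 libraries, with the day longer than the night. The labels do not say how many independent lines, or whether separate plants, stand behind the 2 libraries of a group, so the p-values below reflect how far these particular libraries vary, and that variation may be technical.

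Aquaporins are membrane channels that let water, and in some members carbon dioxide, hydrogen peroxide or small neutral solutes, cross membranes along their gradients. The plasma membrane intrinsic proteins (PIPs) form a PIP1 and a PIP2 group, and PIP2 members are known to carry PIP1 partners to the plasma membrane in mixed tetramers. In leaves, PIPs are known for their part in water movement out of the veins and in the conductance of the mesophyll.

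The PIP2-1 OE libraries hold 38819237 and 40666127 counts on genes, against 24636211 and 36749854 in the WT libraries, so 1 CPM (counts scaled to library size, on the TMM scale) stands for 26.4 to 40.5 counts in these 4 libraries. Leaf marker lists were high in both groups, with summed photosystem and antenna genes at 34260 and 34180 CPM in PIP2-1 OE and 24640 and 24810 CPM in WT. Markers of other tissues stayed low and near equal: summed floral and meristem markers reached 13.6 and 13.4 CPM in PIP2-1 OE against 13.3 and 15.1 CPM in WT, with 4 and 5 of 14 genes at 0 in PIP2-1 OE and in WT. Summed root markers reached 33.4 and 36.0 CPM in PIP2-1 OE against 34.8 and 34.2 CPM in WT, and summed seed storage markers 12.8 and 11.5 CPM in PIP2-1 OE against 12.4 and 10.9 CPM in WT. In such bulk leaf samples, fewer cells of a type and less RNA per cell cannot be told apart. The WT libraries of the 2 experiments, which share variety, tissue and age in their labels, differed from each other at 13907 of 24556 genes tested (edgeR quasi-likelihood test, adjusted p under 0.05). For that reason the WT pair of the OsPIP2-7 experiment (the other WT pair) serves below as another reference, chiefly where its values change a direction or a call. Both comparisons share the PIP2-1 OE libraries, so their values stand side by side and are not independent of each other.

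OsPIP2-1 (Os07g0448800, chr7:15406442-15409748, plus strand, genome build IRGSP-1.0) was measured at 1927 and 1875 CPM in PIP2-1 OE, against 131.6 and 132.6 CPM in WT. The groups do not overlap, and the other WT pair, at 137.7 and 142.7 CPM, lies near the line's own WT. The mean was 1901 ± 36.6 CPM in PIP2-1 OE and 132.1 ± 0.686 CPM in WT (SD, n = 2 each), a log2 change of 3.85 with a standard error of 0.04 (edgeR quasi-likelihood test, Benjamini-Hochberg adjusted p = 5.04e-39). Per transcript length, as TPM, the gene ranked 44 among all genes in PIP2-1 OE and 921 in WT. It made up 44.8% and 44.7% of the summed TPM of the PIP genes in the PIP2-1 OE libraries, against 7.15% and 7.54% in the WT libraries. The summed PIP level was 4255 and 3963 TPM in PIP2-1 OE, against 1956 and 1862 TPM in WT. Without OsPIP2-1 it was 2350 and 2191 TPM in PIP2-1 OE, still above the 1816 and 1721 TPM of WT. Part of that gap comes from Os07g0448400 (mean 137.0 TPM in PIP2-1 OE, 10.8 TPM in WT) and OsPIP2-3 (83.7 and 7.22 TPM). Reads of these loci may be shared with OsPIP2-1, as described below. No such sum was made for the other WT pair, where OsPIP1-1 and OsPIP2-7 stood higher than in PIP2-1 OE and OsPIP1-3 lower. The gene's level matches the label of the line, and the table does not separate reads of the transgene from those of the native gene.

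**Figure D1:**
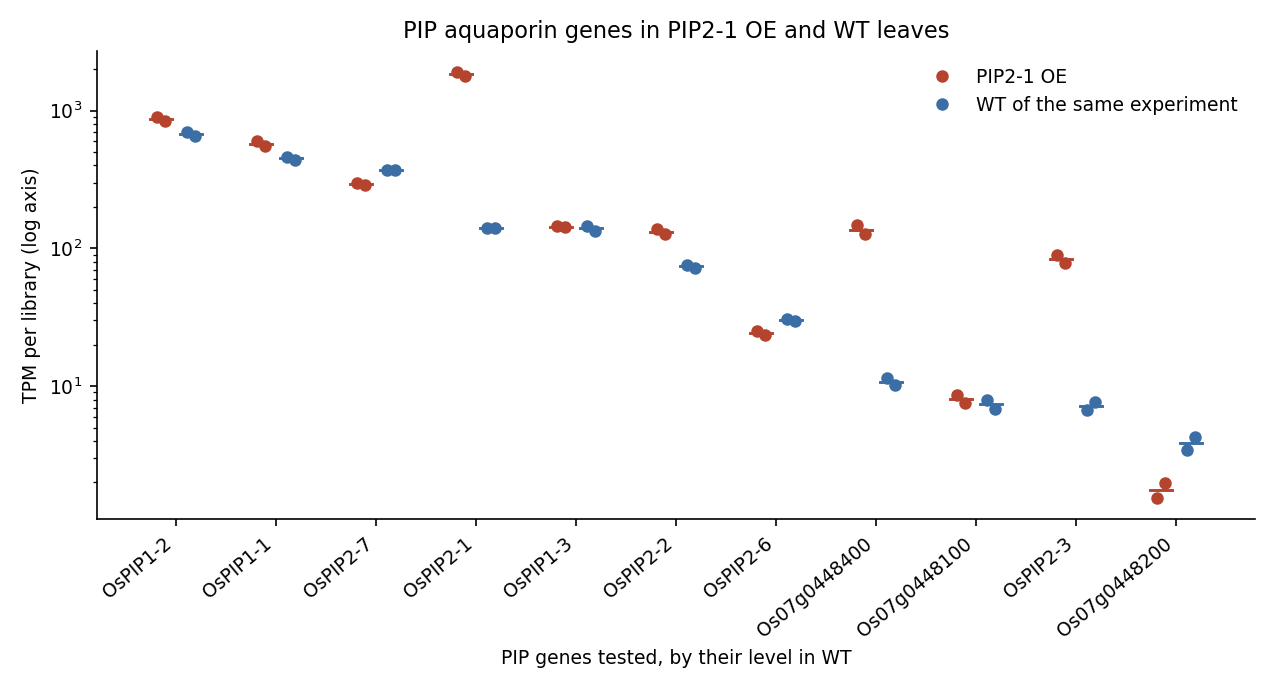
TPM of the 11 PIP genes tested, 1 point per library with a bar at the mean of each pair, PIP2-1 OE in red to the left and WT in blue to the right, on a log axis. OsPIP2-1 ranks the first among PIP genes in PIP2-1 OE and the fourth in WT (mean 1838 TPM in PIP2-1 OE and 140 TPM in WT).

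Of the 13 PIP genes in the table, 11 had enough counts to be tested and 10 passed the test, 7 higher and 3 lower in PIP2-1 OE. The 7 include OsPIP2-1, the gene this line overexpresses, and Os07g0448400 and OsPIP2-3, whose reads may be shared with it. The count and the median below therefore do not describe the other PIP genes alone. Over all genes tested 44.1% passed, 23.2% higher and 20.9% lower, and the median log2 change was 0.48 over the PIP genes and 0.00 over all genes. By mean TPM the order in PIP2-1 OE was OsPIP2-1 (1838 ± 93.8), OsPIP1-2 (870.5 ± 39.5), OsPIP1-1 (573.6 ± 33.0) and OsPIP2-7 (295.1 ± 7.56). In WT it was OsPIP1-2 (674.5 ± 29.6), OsPIP1-1 (449.5 ± 20.7), OsPIP2-7 (371.4 ± 3.09) and OsPIP2-1 (140.0 ± 0.332), with OsPIP1-3 (139.7 ± 9.71) not separable from OsPIP2-1 beyond its spread (SD, n = 2 each). OsPIP2-8 and the PIP2 gene Os10g0481100 stayed at or under 0.0568 TPM in the 4 libraries.

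The PIP1 genes, whose products need PIP2 partners to reach the plasma membrane, rose by less than OsPIP2-1. OsPIP1-2 was at 816 and 801 CPM in PIP2-1 OE, against 588 and 555 CPM in WT, without overlap (log2 change 0.50, edgeR adjusted p = 1.4e-12). OsPIP1-1 was at 561 and 541 CPM in PIP2-1 OE, against 406 and 382 CPM in WT, again without overlap (log2 change 0.48, adjusted p = 1.21e-12). Against the other WT pair OsPIP1-2 stood hardly higher (log2 change 0.08, adjusted p = 0.0386), and OsPIP1-1 was lower (log2 change -0.50). OsPIP1-3 rose by 0.18 on the log2 scale, with 149.4 and 152.5 CPM in PIP2-1 OE and 140.0 and 127.4 CPM in WT (adjusted p = 0.00106), a call that was lost without WT replicate 2 (log2 change 0.11), and was at 104 and 108 CPM in the other WT pair (log2 change 0.51). Among the PIP2 genes, OsPIP2-2 was at 135 and 131 CPM in PIP2-1 OE, against 69.5 and 66.4 CPM in WT (log2 change 0.97, adjusted p = 7.36e-20), while the other WT pair stood at 126 and 126 CPM. OsPIP2-7 fell slightly, to 292 and 295 CPM in PIP2-1 OE against 338 and 336 CPM in WT (log2 change -0.20, adjusted p = 2.1e-05). The other WT pair held more OsPIP2-7, at 496% and 485% of the OsPIP2-1 counts, against 257% and 253% in the line's own WT. With the 4 WT libraries as 1 group its log2 change was -0.80, without passing (edgeR adjusted p = 0.16). OsPIP2-6, at 25.4 and 25.1 CPM in PIP2-1 OE and 29.04 and 28.15 CPM in WT, had a log2 change of -0.18 that passed narrowly (adjusted p = 0.0391) and was lost whenever any 1 of the 4 libraries was left out. Its log2 change was -0.71 against the other WT pair. The PIP2 gene Os07g0448100 did not pass, at 8.12 and 7.53 CPM in PIP2-1 OE against 6.94 and 6.09 CPM in WT (log2 change 0.27, adjusted p = 0.0879). Its counts were 2.09% and 1.76% of those of OsPIP2-1 in the other WT pair, against 5.27% and 4.59% in the line's own WT. Os07g0448200, another PIP2 gene, was at 1.09 and 1.48 CPM in PIP2-1 OE against 2.27 and 2.83 CPM in WT (log2 change -1.001, adjusted p = 0.00126), a call that was lost without WT replicate 2, and was higher than the other WT pair (log2 change 0.87).

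A pair of PIP2 loci moved with OsPIP2-1 in near-fixed proportion. Os07g0448400 (chr7:15376916-15378289), 29.5 kb upstream of OsPIP2-1, had 2788 and 2598 counts in PIP2-1 OE, against 135 and 180 in WT (log2 change 3.81, edgeR adjusted p = 2.24e-28). Its counts were 3.67% and 3.42% of those of OsPIP2-1 in the PIP2-1 OE libraries, and 3.89% and 3.46% in the WT libraries. OsPIP2-3 (chr4:26099273-26101764) had 3487 and 3295 counts in PIP2-1 OE, against 165 and 279 in WT (log2 change 3.65, adjusted p = 3.32e-22), which is 4.59% and 4.34% of the OsPIP2-1 counts in PIP2-1 OE and 4.75% and 5.36% in WT. OsPIP2-2, in contrast, was at 7.01% and 6.98% of the OsPIP2-1 counts in PIP2-1 OE, against 52.8% and 50.1% in WT. Per the table's header, reads that map to several places were counted at each place, so the changes of Os07g0448400 and OsPIP2-3 are uncertain: their own reads and those shared with OsPIP2-1 cannot be told apart.

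Aquaporins outside the PIP group moved in both directions, 4 higher and 4 lower of 14 tested (28.6% each, against 23.2% and 20.9% of all genes). Their median log2 change was -0.18, and 1 was higher and 8 lower against the other WT pair. The tonoplast gene OsTIP2-2 was at 207 and 205 CPM in PIP2-1 OE, against 78.1 and 82.5 CPM in WT (log2 change 1.35, adjusted p = 1.61e-25), but at 293 and 282 CPM in the other WT pair. OsTIP1-2, another tonoplast aquaporin, was at 124 and 118 CPM in PIP2-1 OE, against 232 and 237 CPM in WT (log2 change -0.96, adjusted p = 3.56e-20), and it was also lower against the other WT pair (log2 change -1.58). LSI6, a silicon channel that unloads silicon from the xylem of leaves, was at 19.8 and 18.8 CPM in PIP2-1 OE and 10.3 and 10.8 CPM in WT (log2 change 0.87, adjusted p = 3.17e-10), and rose against the other WT pair too (log2 change 1.17).

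Across the 23487 genes tested, 10355 (44.1%) passed an adjusted p of 0.05, 5452 (23.2%) higher and 4903 (20.9%) lower in PIP2-1 OE. Most of these changes were small: 5535 of the 10355, or 53.5%, had an absolute log2 change under 0.5. Changes of at least 2-fold numbered 1339 higher (5.7% of the genes tested) and 869 lower (3.7%). Against the other WT pair, 6197 genes (25.2% of 24556) were higher and 5923 (24.1%) lower. In the same direction against both WT pairs were 2177 genes higher (9.27%) and 1633 lower (6.95%), of which 546 and 197 changed at least 2-fold in both. Another 2854 genes passed in opposite directions against the 2 WT pairs, so that their direction depends on which WT leaves are used. With the 4 WT libraries taken as 1 group, whose pairs differ from each other, 2061 genes passed. The counts of list members below are to be read beside the shares of all genes. These are 23.2% higher and 20.9% lower against the line's own WT, and 25.2% and 24.1% against the other pair. For members called against both pairs they are 9.27% higher and 6.95% lower. Members that passed in opposite directions are to be read beside the 2854 such genes among the 23487 tested. A list near these shares does not stand out from all genes.

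**Figure D2:**
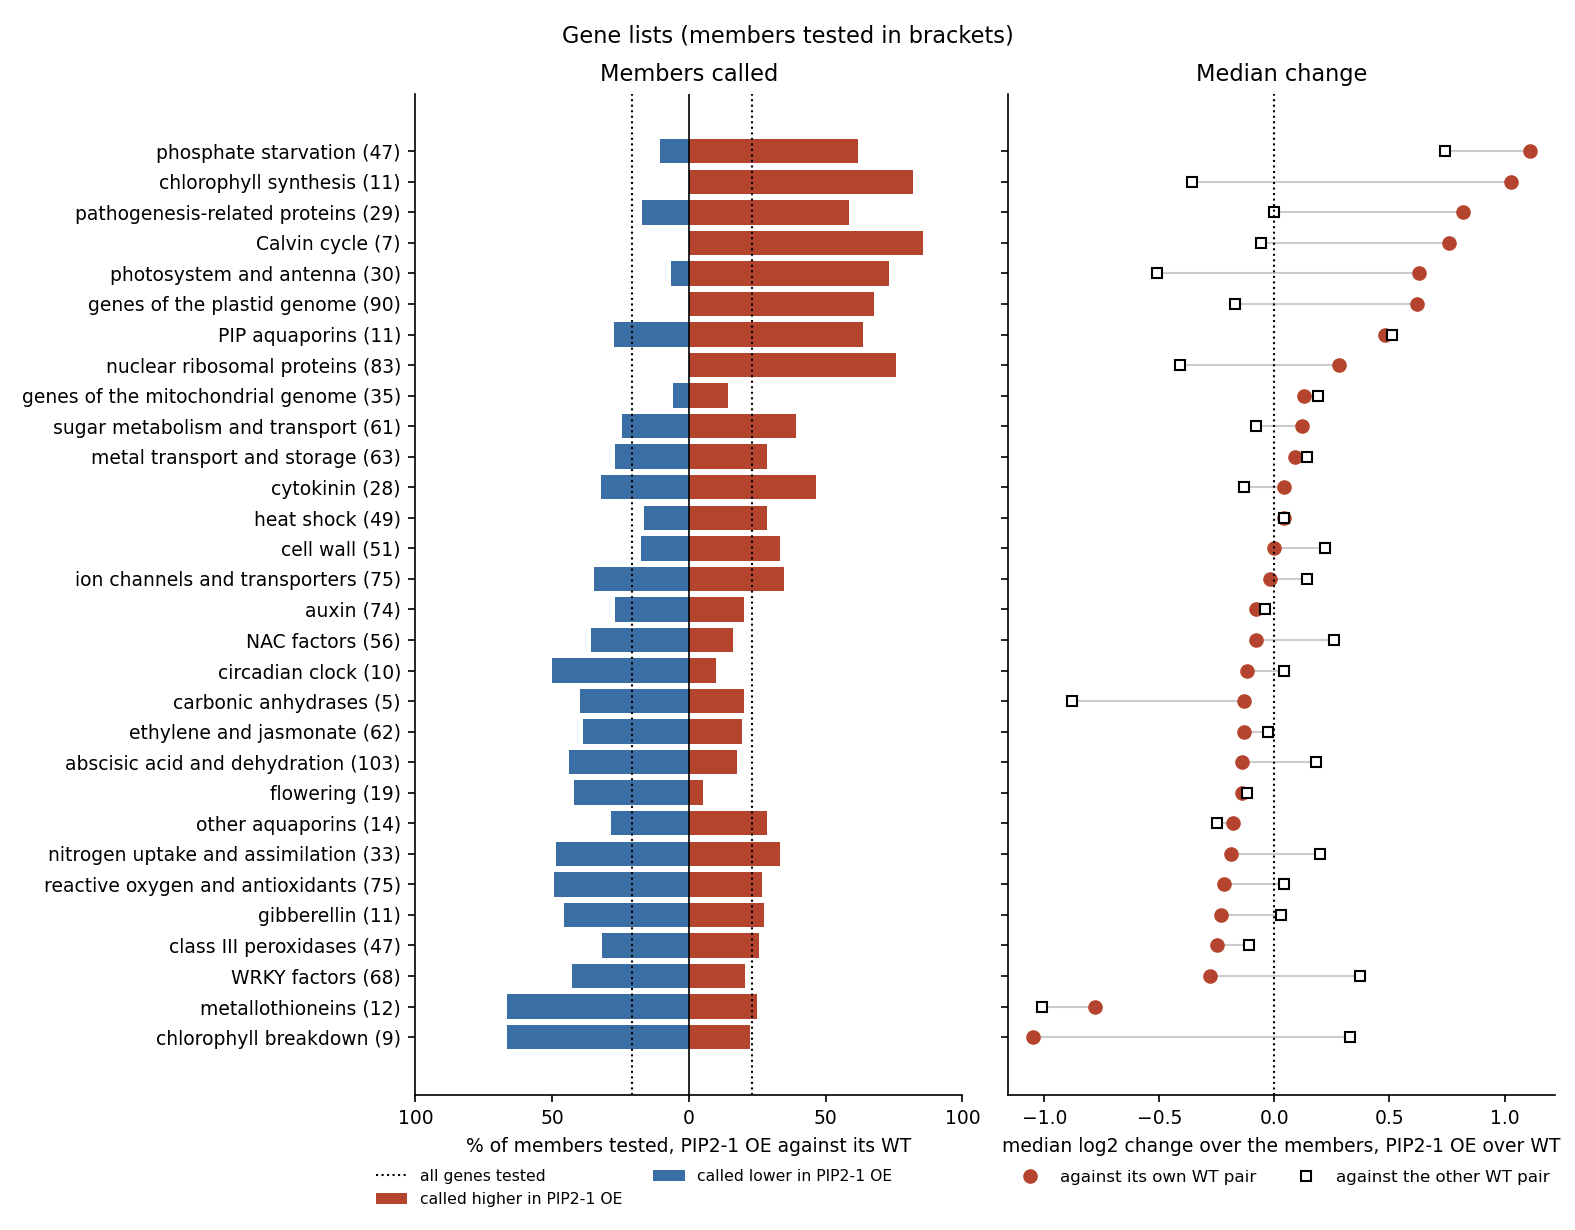
Gene lists, with the number of members tested in brackets. The left panel gives the percent of members called higher (red, to the right) or lower (blue, to the left) in PIP2-1 OE against its own WT, with dotted lines at the 23.2% and 20.9% of all genes tested. The right panel gives the median log2 change of PIP2-1 OE over its own WT (filled) and over the other WT pair (open). The phosphate starvation list is positive and the metallothionein list negative in both comparisons, while the chlorophyll, photosystem and ribosomal protein lists change sign between them.

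Genes of the phosphate starvation response were mostly higher in PIP2-1 OE leaves. Plants short of phosphate induce, through PHR factors, phosphatases, phosphate transporters, SPX proteins that sense inositol pyrophosphates and restrain the PHRs, and enzymes that replace phospholipids by other lipids. The table holds 59 such genes, and 47 were tested: 29 were higher (61.7%, against 23.2% of all genes) and 5 lower, 24 of them at least 2-fold higher (5.7% of all genes) and 1 at least 2-fold lower. The median log2 change was 1.11 against the line's own WT and 0.74 against the other WT pair. Against both pairs 24 members were higher and 2 lower, where 9.27% and 6.95% of all genes were.

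OsIPS1 and OsIPS2 are non-coding RNAs that sequester the microRNA miR399 and rank among the common markers of phosphate shortage. OsIPS2 was at 33.7 and 30.3 CPM in PIP2-1 OE, against 0.341 and 0.331 CPM in WT (log2 change 6.56, edgeR adjusted p = 5.05e-28), with the other WT pair between them at 12.5 and 13.5 CPM. OsIPS1 was at 11.5 and 9.53 CPM in PIP2-1 OE, against 0.190 and 0.102 CPM in WT (log2 change 6.22, adjusted p = 1.65e-20), and at 1.92 and 2.48 CPM in the other WT pair. Neither gene's groups overlap, and the size of both changes depends on the WT pair, at log2 1.30 for OsIPS2 and 2.25 for OsIPS1 against the other one. Of the SPX genes, OsSPX1 was at 217 and 216 CPM in PIP2-1 OE, against 33.1 and 32.9 CPM in WT (log2 change 2.71, adjusted p = 6.05e-33), and OsSPX2 rose as well (log2 change 1.37). OsSPX6 was at 192 and 186 CPM in PIP2-1 OE, against 51.03 and 44.81 CPM in WT and 43.38 and 43.04 CPM in the other WT pair, so its log2 change was 1.99 against the line's own WT and 2.13 against the other pair. OsSPX5 had 274 and 206 counts in PIP2-1 OE, against 1 and 0 in WT, a depth-scaled ratio of 394 with a 95% counting interval of 70.4 to 15600. The other WT pair held 74 counts of it, at 1.21 and 1.01 CPM, so the log2 change of OsSPX5 was 2.44 against that pair, and it did not pass with the 4 WT libraries as 1 group (adjusted p = 0.0549). OsSPX-MFS1, a vacuolar phosphate transporter with an SPX domain, was lower than in WT. It was at 5.86 and 6.03 CPM in PIP2-1 OE, against 43.52 and 44.02 CPM in WT (log2 change -2.88, edgeR adjusted p = 6.45e-26). It was also lower against the other WT pair (log2 change -1.13).

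Purple acid phosphatases release phosphate from organic compounds. Of the 25 on the list (grouped by name after their values were seen) 17 were tested, and 10 were higher and 0 lower, 9 of them higher against both WT pairs. OsPAP10a was at 209 and 204 CPM in PIP2-1 OE, against 32.6 and 32.6 CPM in WT (log2 change 2.66, adjusted p = 1.85e-27), and at 65.9 and 65.5 CPM in the other WT pair. OsPAP3c was at 228 and 228 CPM in PIP2-1 OE, against 36.3 and 39.1 CPM in WT (log2 change 2.59, adjusted p = 1.1e-31). OsPAP23 was at 22.99 and 23.61 CPM in PIP2-1 OE, against 0.531 and 0.815 CPM in WT (log2 change 5.05, adjusted p = 3.82e-25). For these 3 genes the PIP2-1 OE libraries lie above both WT pairs. PAP27A was nearly as far above each pair, at 19.1 and 15.9 CPM in PIP2-1 OE against 2.62 and 2.01 CPM in WT, with log2 changes of 2.95 and 2.73.

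The list also holds lipid, transport and regulatory genes of the same response. SQD2.2, for an enzyme of sulfolipid synthesis, was at 277 and 268 CPM in PIP2-1 OE, against 61.9 and 60.4 CPM in WT (log2 change 2.15, adjusted p = 4.37e-31), and was higher against the other WT pair (log2 change 0.91). SQD2.1 was at 323 and 331 CPM in PIP2-1 OE, against 78.6 and 79.2 CPM in WT (log2 change 2.05, adjusted p = 2.82e-31), but its log2 change was 0.04 against the other WT pair (adjusted p = 0.291), which held 323 and 312 CPM. Of 13 phosphate transporter genes on the list (grouped by name after their values were seen) 10 were tested, and 6 were higher and 1 lower. PT8 was at 179 and 187 CPM in PIP2-1 OE, against 85.5 and 76.2 CPM in WT (log2 change 1.18, adjusted p = 3.82e-21), and PT4 at 69.19 and 71.02 CPM in PIP2-1 OE against 35.1 and 30.4 CPM in WT (log2 change 1.11). Both were higher against the other WT pair as well, by 1.76 and 1.19 on the log2 scale. PHF1, needed for phosphate transporters to leave the endoplasmic reticulum, rose by 1.66 on the log2 scale. OsPHR4, a PHR factor, rose by 1.86, with a log2 change of 0.04 against the other WT pair (adjusted p = 0.441). The PHR2 gene Os07g0438800 and the transporter gene PT1 were slightly lower (log2 changes -0.24 and -0.26), and PT1 was higher against the other WT pair (log2 change 1.56).

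**Figure D3:**
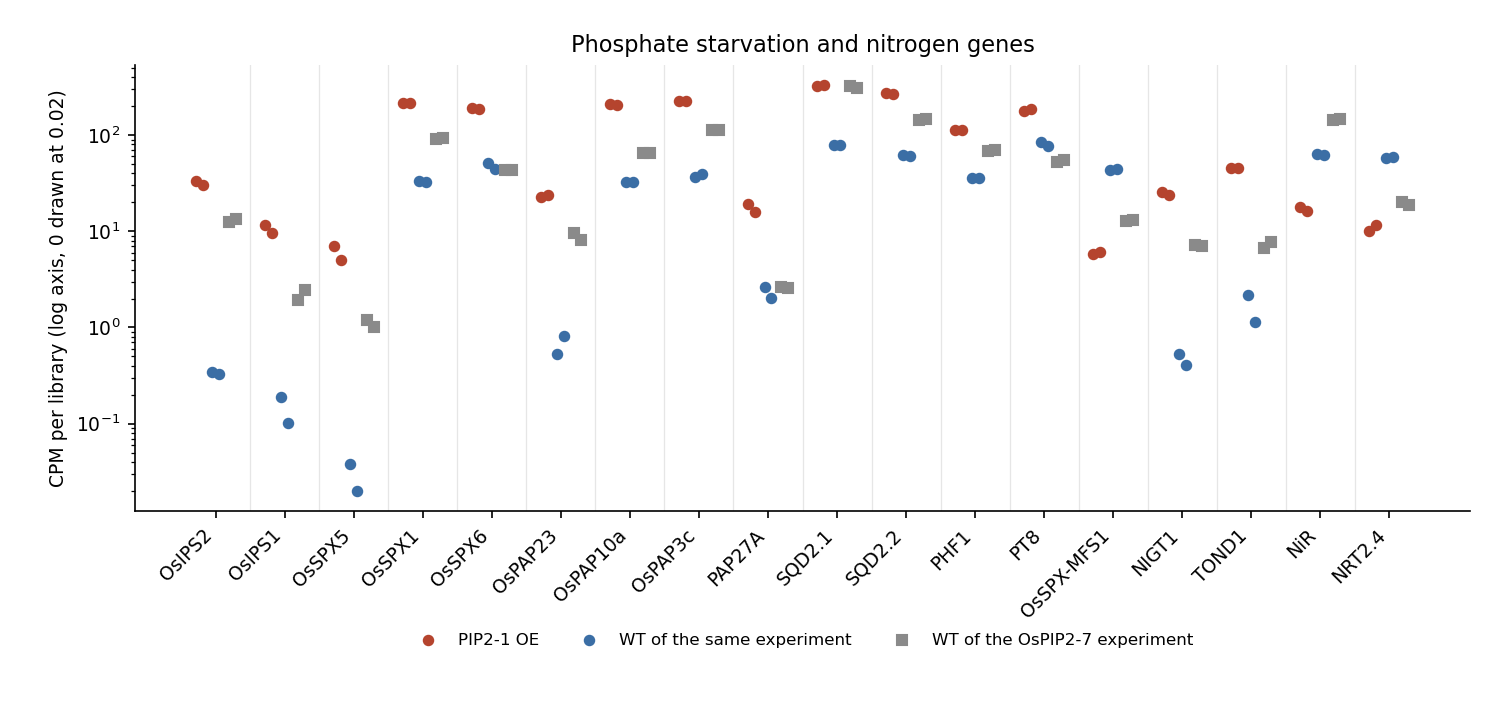
CPM per library, on a log axis, of 14 phosphate starvation genes followed by 4 nitrogen genes in PIP2-1 OE (red), the WT of the same experiment (blue) and the WT of the OsPIP2-7 experiment (grey squares). A library at 0 is drawn at 0.02 CPM. PIP2-1 OE lies above both WT pairs for most phosphate genes, for instance OsSPX1 at 217 and 216 CPM, and below both for OsSPX-MFS1, NiR and NRT2.4.

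Nitrogen genes moved in both directions, 11 higher and 16 lower of 33 tested (33.3% and 48.5%, against 23.2% and 20.9% of all genes). At least 2-fold changes numbered 4 higher and 12 lower, where 5.7% and 3.7% of all genes changed so far. The median log2 change was -0.19 against the line's own WT and 0.20 against the other pair. Against the other pair 16 were higher and 9 lower of 35, and 9 passed in opposite directions. Nitrate is taken up by NRT2 transporters, reduced by nitrate and nitrite reductase and assimilated through glutamine, and NIGT1 factors repress the uptake genes. NIGT1 was at 25.7 and 23.8 CPM in PIP2-1 OE, against 0.531 and 0.408 CPM in WT (log2 change 5.74, edgeR adjusted p = 1.31e-25). TOND1, named for tolerance of nitrogen deficiency, averaged 45.6 ± 0.612 CPM in PIP2-1 OE and 1.67 ± 0.744 CPM in WT (SD, n = 2 each; log2 change 4.85, adjusted p = 6.55e-26). Both stood above the other WT pair too, by 1.79 for NIGT1 and 2.65 for TOND1 on the log2 scale. The nitrate transporter gene NRT2.4 was at 10.02 and 11.58 CPM in PIP2-1 OE, against 57.3 and 58.8 CPM in WT (log2 change -2.43, adjusted p = 7.63e-24). NiR, for nitrite reductase, was at 17.7 and 16.1 CPM in PIP2-1 OE, against 64.3 and 61.7 CPM in WT and 143 and 148 CPM in the other WT pair, with log2 changes of -1.90 and -3.11. The nitrate reductase genes OsNR1 and OsNIA2, neighbours at nearly equal levels on chromosome 8, had log2 changes of -1.10 and -1.08, and may share reads. NRT2.4, NiR, OsNR1 and OsNIA2 were lower against both WT pairs.

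Other nitrogen genes rest on the choice of WT leaves. OsASNase2, for an asparaginase that frees ammonium from asparagine, was at 129 and 128 CPM in PIP2-1 OE, against 1407 and 1349 CPM in WT (log2 change -3.42, adjusted p = 4.67e-38). The other WT pair stood at 124.4 and 122.8 CPM, within 0.06 log2 units of PIP2-1 OE (adjusted p = 0.163). OsDUR3, a urea transporter gene, was at 14.2 and 14.2 CPM in PIP2-1 OE, against 61.6 and 58.5 CPM in WT (log2 change -2.08) and 4.53 and 4.88 CPM in the other WT pair (log2 change 1.59). The ammonium transporter gene AMT1 (Os04g0509600) likewise had a log2 change of -1.30 against the line's own WT and 0.29 against the other pair.

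Genes of chlorophyll synthesis were higher in PIP2-1 OE than in its WT, and genes of chlorophyll breakdown lower, with the opposite signs against the other WT pair. Of 11 synthesis genes 9 were higher, 7 of them at least 2-fold, with a median log2 change of 1.03 against the line's own WT and -0.36 against the other pair. HEMA1, for glutamyl-tRNA reductase at the entry of the pathway, was at 253 and 262 CPM in PIP2-1 OE, against 64.6 and 64.3 CPM in WT (log2 change 1.997, edgeR adjusted p = 1.04e-30), and 323 and 322 CPM in the other WT pair. OsChlH, for the H subunit of magnesium chelatase, was at 922 and 916 CPM in PIP2-1 OE, against 287 and 301 CPM in WT (log2 change 1.64, adjusted p = 1.59e-29). The gene chlH, named for the same subunit, rose by 1.61 and may share reads with OsChlH. OsCRD1, for the cyclase that closes the fifth ring, rose by 1.03 on the log2 scale. In each of these 4 genes the PIP2-1 OE libraries lie between the 2 WT pairs.

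Of 9 breakdown genes 6 were lower and 2 higher, with a median log2 change of -1.05 against the line's own WT and 0.33 against the other pair. SGR, the stay-green magnesium dechelatase, was at 20.7 and 20.7 CPM in PIP2-1 OE, against 102 and 103 CPM in WT (log2 change -2.31, adjusted p = 3.72e-26), but at 4.09 and 4.41 CPM in the other WT pair. OsRCCR1, for red chlorophyll catabolite reductase, was at 18.4 and 17.3 CPM in PIP2-1 OE, against 59.4 and 66.2 CPM in WT (log2 change -1.82, adjusted p = 2.46e-22). NYC3 and OsPAO, for a hydrolase and the pheophorbide oxygenase of the same route, had log2 changes of -1.21 and -1.05. Against the other WT pair the log2 changes of SGR, OsRCCR1 and NYC3 were 2.28, 0.59 and 0.33, and OsPAO did not pass (adjusted p = 0.172).

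Photosystem and antenna genes showed the same split. Of 30 tested, 22 were higher (73.3%) and 2 lower, with a median log2 change of 0.63, while against the other WT pair 23 were lower and 4 higher, with a median of -0.51, and 17 passed in opposite directions. CP24, a minor antenna protein of photosystem II, was at 632 and 637 CPM in PIP2-1 OE, against 236 and 230 CPM in WT (log2 change 1.44, adjusted p = 8.37e-27) and 852 and 876 CPM in the other WT pair. CP29, its neighbour in the antenna, and PsbO, of the oxygen-evolving complex, had log2 changes of 1.35 and 1.04 against the line's own WT and -0.63 and -0.57 against the other pair. PSBS2, for a protein of energy dissipation, and CabE, for an antenna protein, were the 2 members called lower, with log2 changes of -0.60 and -0.53. Of these, CabE was lower against the other WT pair as well (log2 change -0.28), whereas PSBS2 was higher (log2 change 1.70).

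Carbon fixation genes were closer to the other WT pair than to their own. Of 7 Calvin cycle genes 6 were higher, with a median log2 change of 0.76 against the line's own WT and -0.06 against the other pair. RbcS3, a Rubisco small subunit gene, was at 7447 and 7385 CPM in PIP2-1 OE, against 3549 and 3446 CPM in WT (log2 change 1.08, adjusted p = 4.62e-24), and 7598 and 7828 CPM in the other WT pair. The small subunit genes Os12g0274700 and Os12g0292400 had log2 changes of 1.65 and 1.45. Small subunit genes resemble each other closely and may share reads. BETACA1, for the chief carbonic anhydrase of the chloroplast, was at 1769 and 1716 CPM in PIP2-1 OE, against 616 and 567 CPM in WT (log2 change 1.56, adjusted p = 1.29e-26), and 2485 and 2550 CPM in the other WT pair. It was the sole carbonic anhydrase called higher, while 2 of the 5 tested were called lower.

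Genes of the plastid genome, whose products include photosystem cores and part of the plastid gene expression machinery, took 0.547% and 0.541% of counts in PIP2-1 OE, against 0.375% and 0.380% in WT, and 0.548% and 0.546% in the other WT pair. Of 90 plastid genes tested 61 were higher and 0 lower against the line's own WT, with a median log2 change of 0.62, and 20 were higher and 29 lower against the other pair. Nuclear ribosomal protein genes moved likewise: 63 of 83 were higher and 0 lower, with a small median log2 change of 0.28, while 77 were lower against the other pair, with a median of -0.41. The largest of the 3 named by p was OsRPL21, with a log2 change of 1.34 against the line's own WT and -0.28 against the other. Genes of the mitochondrial genome changed little, with 5 higher and 2 lower of 35 tested.

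**Figure D4:**
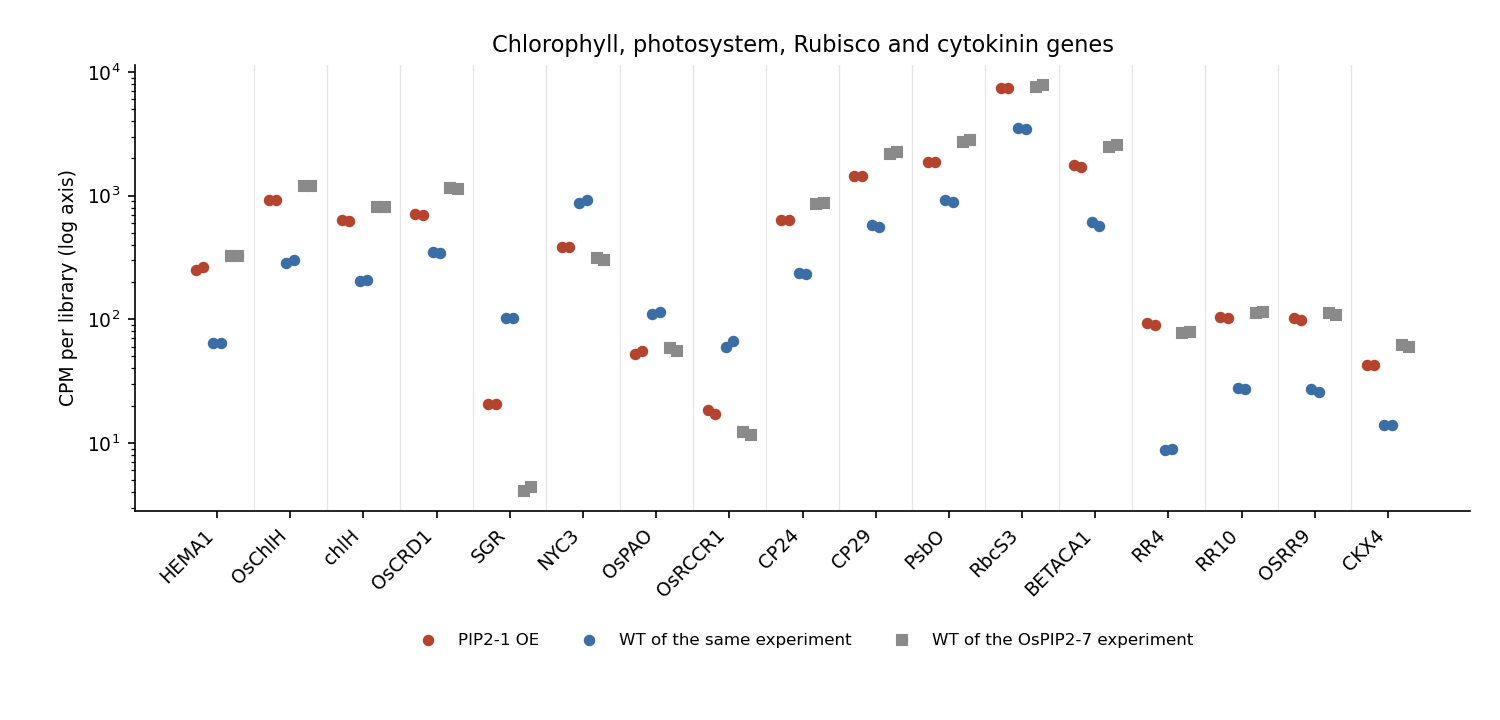
CPM per library, on a log axis, of 4 chlorophyll synthesis genes, 4 chlorophyll breakdown genes, 5 photosystem and carbon fixation genes and 4 cytokinin genes in PIP2-1 OE (red), the WT of the same experiment (blue) and the WT of the OsPIP2-7 experiment (grey squares). For most of these genes, such as HEMA1 at 253 and 262 CPM, PIP2-1 OE lies nearer to the other WT pair than to its own.

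Cytokinin genes held a group of strong rises. Of 28 tested 13 were higher and 9 lower, 10 of them at least 2-fold higher, yet the median log2 change was 0.04 against the line's own WT and -0.13 against the other pair. Against that other pair 8 were higher and 12 lower of 28. The response regulators named RR, most of them of type A, which cytokinin induces and which damp its signal, held many of the rises: 6 of 9 tested were higher, each at least 2-fold, and 0 were lower (a group picked after its values were seen). RR4 was at 93.6 and 89.9 CPM in PIP2-1 OE, against 8.79 and 8.97 CPM in WT (log2 change 3.36, edgeR adjusted p = 1.1e-31), and 77.7 and 79.1 CPM in the other WT pair (log2 change 0.23). RR6 was at 13.02 and 13.43 CPM in PIP2-1 OE, against 1.59 and 1.55 CPM in WT (log2 change 3.07, adjusted p = 2.57e-19), and was higher against the other pair too (log2 change 0.68). OSRR9 and RR10, a pair of similar genes that may share reads, rose by 1.93 and 1.90, and OSRR2 by 2.26. CKX4, for a cytokinin oxidase that breaks the hormone down, was at 42.86 and 42.97 CPM in PIP2-1 OE, against 14.03 and 14.01 CPM in WT (log2 change 1.61, adjusted p = 8.92e-21), and 61.68 and 60.03 CPM in the other WT pair. HK3, for a cytokinin receptor, and the LOG-like activating enzyme genes LOGL3 and LOGL5 were lower, with log2 changes of -0.52, -0.75 and -0.74. HK3 was lower against the other WT pair too (log2 change -0.22), whereas LOGL3 and LOGL5 were higher (log2 changes 0.46 and 0.52). OSRR2, OSRR9, RR10 and CKX4 were each lower in PIP2-1 OE than in the other WT pair.

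Pathogenesis-related (PR) protein genes, which include chitinases and glucanases and are induced in attacked leaves, were mostly higher in PIP2-1 OE. Of 29 tested 17 were higher (58.6%) and 5 lower, 14 and 5 of them at least 2-fold, and the median log2 change was 0.82. Against the other WT pair the median was 0.00, with 15 higher and 10 lower of 34 tested. Against both pairs 13 members were higher and 1 lower, where 9.27% and 6.95% of all genes were, and 4 passed in opposite directions. OsPR4b was at 12.8 and 13.7 CPM in PIP2-1 OE, against 1.25 and 1.25 CPM in WT (log2 change 3.40, edgeR adjusted p = 8.48e-20), and 1.86 and 2.02 CPM in the other WT pair. The chitinase gene Cht8 was at 35.2 and 35.2 CPM in PIP2-1 OE, against 3.41 and 3.41 CPM in WT (log2 change 3.36, adjusted p = 1.3e-25), and 6.20 and 5.88 CPM in the other WT pair. RSOsPR10, a PR10 gene first described in roots, was at 28.0 and 28.3 CPM in PIP2-1 OE, against 4.40 and 5.07 CPM in WT (log2 change 2.55, adjusted p = 1.24e-21). OsPR1 was at 9.67 and 10.8 CPM in PIP2-1 OE, against 1.25 and 0.968 CPM in WT (log2 change 3.23), and at 0.0930 and 0.0865 CPM in the other WT pair. These 4 genes, and the chitinase gene Cht11 (log2 change 1.31), were higher against both WT pairs. OsPR4b and OsPR1 were named because they passed against both pairs, so for them this is no separate result. The PR2 glucanase gene Os05g0375400 went down against both, at 8.07 and 8.22 CPM in PIP2-1 OE, against 24.2 and 24.1 CPM in WT (log2 change -1.57, adjusted p = 2.64e-17) and 21.8 and 23.6 CPM in the other WT pair. Not every PR1 gene rose: OsPR1#051 and OsPR1#101 were lower than in the line's own WT, with log2 changes of -3.28 and -1.63. OsPR1#101, at 0.939 and 0.667 CPM in PIP2-1 OE, was higher against the other WT pair (log2 change 1.82).

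WRKY factors, which regulate defence and senescence genes, were more often lower: 29 of 68 tested were lower (42.6%, against 20.9% of all genes) and 14 higher, with a median log2 change of -0.28. Against the other WT pair 36 were higher and 15 lower, with a median of 0.37. WRKY62 had 4 and 0 counts in PIP2-1 OE, against 140 and 243 in WT (log2 change -6.75, edgeR adjusted p = 1.29e-16), and WRKY76, a neighbour on chromosome 9, was at 0.279 and 0.346 CPM in PIP2-1 OE against 8.61 and 7.18 CPM in WT (log2 change -4.63, adjusted p = 4.13e-18). Both are known as repressors of blast resistance, and both were lower against the other WT pair (log2 changes -2.42 and -1.66), where they were also low. WRKY45, which acts in salicylic acid signalling, was at 15.8 and 15.3 CPM in PIP2-1 OE, against 76.7 and 68.1 CPM in WT (log2 change -2.22, adjusted p = 2.08e-25) and 13.1 and 12.4 CPM in the other WT pair. OsWRKY41 rose against both pairs, with log2 changes of 0.62 and 1.37. NAC factors were lower in 20 (35.7%, against 20.9% of all genes) and higher in 9 of 56 tested, while 6 were lower and 25 higher of 58 against the other WT pair, and 12 passed in opposite directions. SNAC1 and OsNAC6, both linked to drought responses, had log2 changes of -0.97 and -0.83 against the line's own WT and 0.57 and 0.12 against the other pair.

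Among redox genes, RbohF, for a plasma membrane NADPH oxidase that makes superoxide outside the cell, was at 50.4 and 46.3 CPM in PIP2-1 OE, against 10.9 and 9.73 CPM in WT (log2 change 2.24, edgeR adjusted p = 2.44e-21) and 2.60 and 3.03 CPM in the other WT pair (log2 change 4.10). The wider list of reactive oxygen and antioxidant genes was lower in 37 and higher in 20 of 75 tested (49.3% and 26.7%, against 20.9% and 23.2% of all genes), with a median log2 change of -0.22. In the comparison with the other WT pair 20 were lower and 25 higher of 78, with a median of 0.04, and 20 passed in opposite directions. CATB, for a catalase, fell by 0.66 on the log2 scale and was also lower against the other WT pair (log2 change -0.35). APX8, for a chloroplast ascorbate peroxidase, rose by 0.85 but was lower against the other pair (log2 change -0.46). Class III peroxidases, which act in the cell wall, were higher in 12 and lower in 15 of 47 tested, 8 and 11 of them at least 2-fold. These shares are 25.5% and 31.9%, against 23.2% and 20.9% of all genes. Against the other WT pair 9 were higher and 12 lower of 54. The gene prx62 was at 12.1 and 10.1 CPM in PIP2-1 OE, against 0.796 and 0.688 CPM in WT (log2 change 3.91, adjusted p = 6.9e-19), while prx29 and prx78 were lower (log2 changes -1.87 and -1.25), all 3 in the same direction against the other pair.

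Metallothioneins, small cysteine-rich proteins that bind metals, were mostly lower. Of 12 tested 8 were lower and 3 higher, 5 of them at least 2-fold lower, with a median log2 change of -0.78 against the line's own WT and -1.01 against the other pair. The 4 largest falls belong to a run of type 1 genes on chromosome 12, from OsMT1f (start 23352196) to MTI4C (end 23516013). In it, MTI4C was at 7.21 and 7.78 CPM in PIP2-1 OE, against 57.7 and 56.6 CPM in WT (log2 change -2.93, edgeR adjusted p = 3.07e-27) and 22.4 and 21.9 CPM in the other WT pair. OsMT1g was at 1.98 and 1.98 CPM in PIP2-1 OE, against 17.1 and 16.7 CPM in WT (log2 change -3.09, adjusted p = 9.3e-21), and OsMT1f and OsMT1c had log2 changes of -2.86 and -2.79. MT1Ld, in the same run but not matched by the list, had a log2 change of -2.29. The PIP2-1 OE libraries lie below both WT pairs for these 5 genes, whose near copies may share reads. OsMT2b, of type 2, was at 65.7 and 67.5 CPM in PIP2-1 OE, against 137 and 133 CPM in WT (log2 change -1.02, adjusted p = 3.55e-21), and was lower against the other pair (log2 change -1.43). OsMT2a rose by 0.57 against the line's own WT but was lower against the other pair (log2 change -0.48).

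Of the other metal genes 18 were higher and 17 lower of 63 tested (28.6% and 27.0%, near the 23.2% and 20.9% of all genes). Against the other WT pair 26 were higher and 19 lower of 67. The zinc and iron transporter gene OsZIP10 (Os06g0566300) was at 41.0 and 41.9 CPM in PIP2-1 OE, against 10.2 and 10.1 CPM in WT (log2 change 2.02, edgeR adjusted p = 5.92e-22) and 2.02 and 1.41 CPM in the other WT pair. The ferritin genes OsFER1 and FER2, for iron storage in plastids, rose by 0.86 and 0.91 against the line's own WT and were lower against the other pair (log2 changes -0.28 and -0.23). Ion channel and transporter genes were higher in 26 and lower in 26 of 75, and higher in 32 and lower in 18 against the other WT pair. OSA2, for a plasma membrane proton pump, was at 174 and 171 CPM in PIP2-1 OE, against 60.8 and 58.7 CPM in WT (log2 change 1.53, adjusted p = 3.47e-26), and 154 and 144 CPM in the other WT pair (log2 change 0.21). KAT2, for a potassium channel, was at 7.76 and 6.91 CPM in PIP2-1 OE, against 18.8 and 18.8 CPM in WT (log2 change -1.36, adjusted p = 4.22e-14), and was lower against the other pair by a similar size (log2 change -1.18).

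Of the hormone lists, abscisic acid and dehydration genes were lower in 45 and higher in 18 of 103 tested, and lower in 21 and higher in 46 of 105 against the other pair, with a median log2 change of -0.14 against the line's own WT and 0.18 against the other pair. The protein phosphatase gene OsPP2C27 fell by 0.97 and the kinase gene SAPK5 by 0.74, both of them also lower against the other pair (log2 changes -0.92 and -0.32). OsASR5, for a small stress and ripening protein, was at 2069 and 2110 CPM in PIP2-1 OE, against 1068 and 1032 CPM in WT (log2 change 0.99, edgeR adjusted p = 9.67e-21), and 1804 and 1817 CPM in the other WT pair (log2 change 0.21). Auxin genes were higher in 15 and lower in 20 of 74 tested (20.3% and 27.0%, against 23.2% and 20.9% of all genes), and higher in 25 and lower in 22 of 77 against the other pair, with OsSAUR26 at a log2 change of 1.38 against the line's own WT and 4.44 against the other pair, and OsARF16 at -1.34 and -0.55. Gibberellin genes were higher in 3 and lower in 5 of 11, and higher in 3 and lower in 4 of 12 against the other pair. Ethylene and jasmonate genes were higher in 12 and lower in 24 of 62, and higher in 23 and lower in 24 against the other pair. Against both WT pairs 16 were lower, where 6.95% of all genes were. Among them were OsOPR10 (log2 change -0.94) and OsJAZ6 (log2 change -0.71), an enzyme gene and a repressor gene of the jasmonate pathway.

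Sugar genes were higher in 24 and lower in 15 of 61 tested, and higher in 19 and lower in 21 of 62 against the other WT pair, with 15 in opposite directions. The invertase gene OSCIN1, which splits sucrose in the cell wall, was at 157 and 153 CPM in PIP2-1 OE, against 67.8 and 65.7 CPM in WT (log2 change 1.21, edgeR adjusted p = 3.36e-23), and rose against the other pair too (log2 change 0.71). OsSWEET3a and OsSWEET2b, for sugar transporters, fell by 2.26 and 1.05 on the log2 scale and were lower against both pairs. OsSUT1, for a sucrose transporter of phloem loading, fell by 1.18 but hardly differed from the other pair (log2 change -0.16). Cell wall genes were higher in 17 and lower in 9 of 51, and higher in 16 and lower in 8 of 55 against the other pair, with the cellulose synthase-like gene OsCslE6 at 820 and 822 CPM in PIP2-1 OE, against 307 and 316 CPM in WT (log2 change 1.396, adjusted p = 5.11e-27). Heat shock genes were higher in 14 and lower in 8 of 49 (28.6% and 16.3%, near the 23.2% and 20.9% of all genes), and higher in 15 and lower in 17 of 52 against the other pair. HSFA2B, for a heat shock factor, rose against both pairs (log2 changes 1.86 and 0.96), with Oshsp17.9A down against both pairs (log2 changes -1.47 and -1.32). Clock genes were lower in 5 and higher in 1 of 10, but lower in 2 and higher in 3 of 11 against the other pair. OsELF3.2 had the largest change (log2 change -0.67), and GI, a clock and flowering regulator, was at -0.30, while neither passed against the other pair (log2 changes 0.03 and -0.05, adjusted p = 0.85 and 0.144). Flowering genes were lower in 8 and higher in 1 of 19, and lower in 8 and higher in 7 against the other pair. OsMADS56, a repressor of flowering in long days, was at 23.8 and 23.6 CPM in PIP2-1 OE, against 62.55 and 62.45 CPM in WT, and fell against the other pair too (log2 change -1.07).

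Several named genes outside these lists were picked for large changes called in the same direction against both WT pairs, so their shared direction is no separate result. The same holds for OsPR4b, OsPR1, PAP27A, NiR, KAT2, OsMT1f and MT1Ld above, which were named by that rule alone. VLN4, for an actin-bundling villin, was at 12.97 and 12.3 CPM in PIP2-1 OE, against 0.0758 and 0.255 CPM in WT and 0.155 and 0.202 CPM in the other pair (log2 changes 6.08 and 6.11, edgeR adjusted p = 1.17e-21 and 7.68e-29). OsSub8, for a subtilisin-like protease, was at 46.6 and 44.7 CPM in PIP2-1 OE, against 2.39 and 2.09 CPM in WT (log2 changes 4.36 and 3.90). OsACL5, for an enzyme of thermospermine synthesis, was at 11.1 and 11.1 CPM in PIP2-1 OE, against 1.10 and 0.943 CPM in WT (log2 changes 3.46 and 2.86). In these 3 genes the 4 WT libraries lie close together and far below PIP2-1 OE. The gene sl, for the cytochrome P450 missing in the Sekiguchi lesion mutant, and the cinnamoyl-CoA reductase gene Os08g0441500 rose by 3.34 and 3.09 against the line's own WT, and by 4.42 and 5.20 against the other pair. Among the falls, the sulfate transporter gene OsSultr2 (Os03g0195300) was at 2.537 and 2.198 CPM in PIP2-1 OE, against 9.02 and 9.02 CPM in WT and 8.71 and 7.93 CPM in the other pair (log2 changes -1.93 and -1.81). OMTN6, a NAC factor gene targeted by the microRNA miR164, was at 15.3 and 15.6 CPM in PIP2-1 OE, against 57.0 and 58.5 CPM in WT (log2 changes -1.90 and -1.46). Pib-H8, whose name refers to the blast resistance gene Pib, had log2 changes of -1.13 and -1.57, and OsbHLH088, for a bHLH factor, -1.38 and -1.23.

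Some loci were present in PIP2-1 OE and nearly absent in its WT, defined as at least 1 CPM in both libraries of one pair and at most 3 counts over the other pair. Of these, 59 were on in PIP2-1 OE, 3 of them with a name in the files (OsHXK1, OsSPX5 and OsWD40-187), and 4 were off. OsHXK1, a hexokinase gene (Os07g0446800, chr7:15293180-15294805), had 465 and 506 counts in PIP2-1 OE, against 0 and 0 in WT, at least 266-fold higher when WT is set to 3 counts over the pair. It was also at 0 in both libraries of the other WT pair. Os03g0299700 had 2635 counts over the PIP2-1 OE pair, against 0 in WT (at least 721-fold higher), and Os10g0571900 had 1401, against 0 in WT (at least 384-fold higher). Of the 59 loci, 39 were also absent from the other WT pair, 6 were present in it and 14 lay between. Absent from each of the other 5 groups were 8 loci, Os10g0571900 among them.

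A set of 17 loci was present in both overexpression lines, PIP2-1 OE and the OsPIP2-7 line, and absent from both knockouts and both WT pairs. Of these, 9 have an annotated transcript length of 2825 to 2997 bp and similar levels, from 4.64 to 8.15 CPM in PIP2-1 OE, and 0 counts in the 8 knockout and WT libraries. They lie on chromosomes 1, 5, 10, 11 and 12, for example Os05g0232800 (chr5:8053522-8056940) at 7.59 and 8.15 CPM in PIP2-1 OE and Os01g0722550 (chr1:30125573-30128993) at 5.15 and 5.33 CPM. The other 8 include Os10g0460800 at 7.82 and 8.07 CPM in PIP2-1 OE and Os06g0190900 at 7.11 and 6.84 CPM, which share a length of 615 bp. Since reads that map to several places were counted at each, the number of loci that were truly active among such like ones cannot be told apart from shared reads. The files give these loci no names, and their sequences were not used here.

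**Figure D5:**
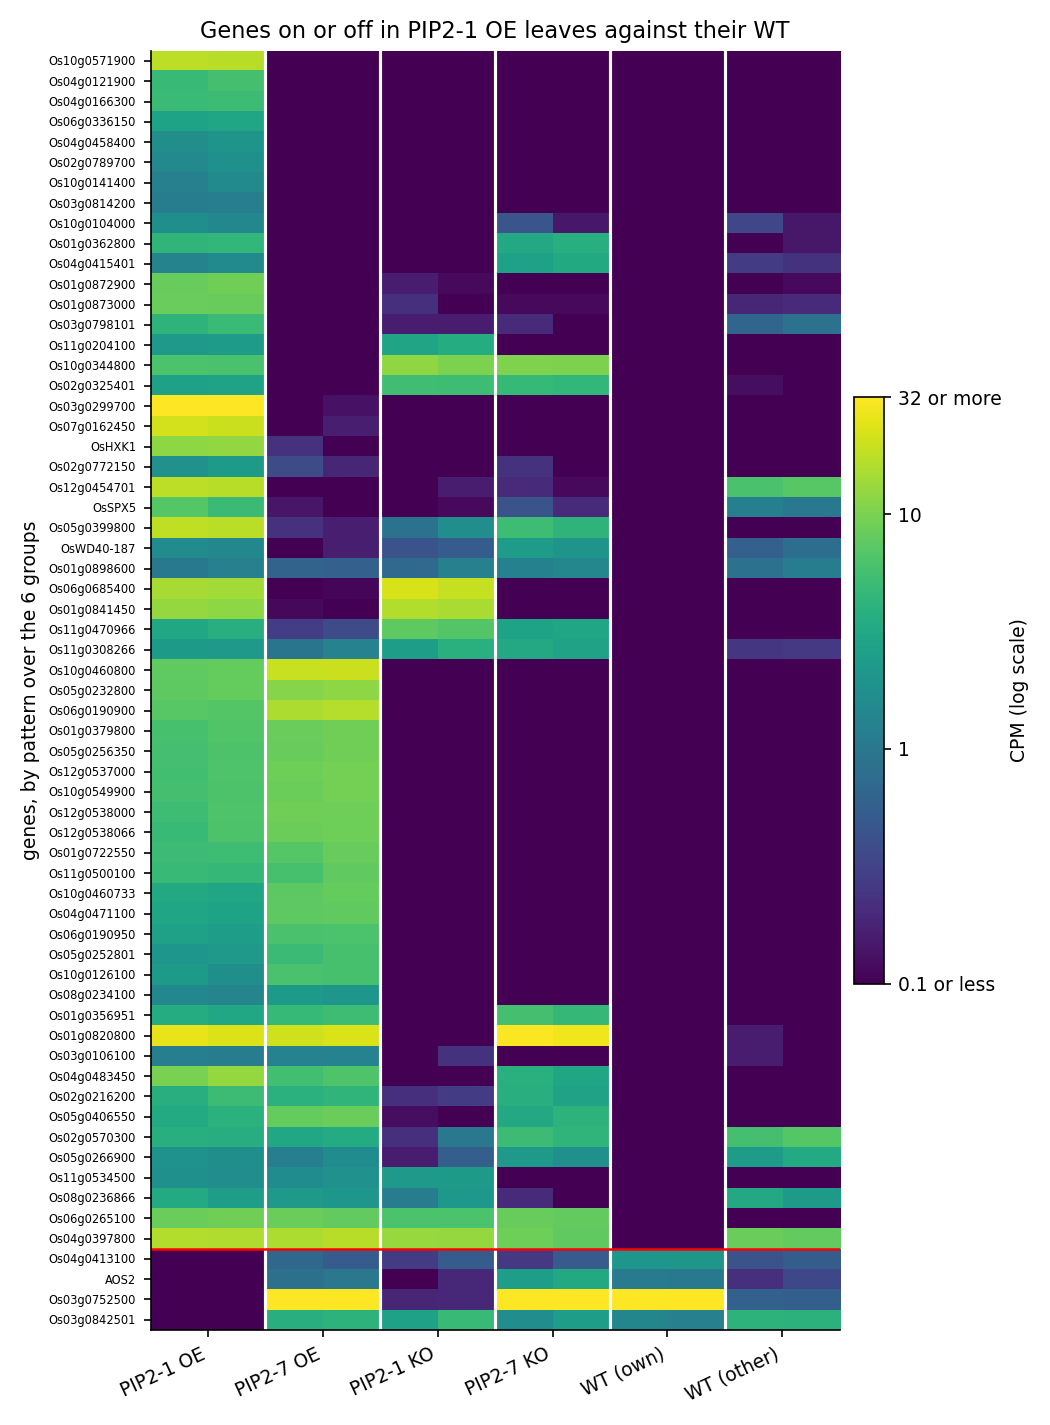
CPM per library, on a log colour scale, of the 59 loci on (above the red line) and 4 loci off (below it) in PIP2-1 OE against its WT, over the 12 libraries of the series, PIP2-1 OE at the left and the WT pairs at the right. A block of 17 loci is present in the first 2 groups, the overexpression lines, and absent in the other 4.

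The 4 loci off in PIP2-1 OE include AOS2, for an allene oxide synthase of jasmonate synthesis, with 2 counts over the PIP2-1 OE pair, against 69 in WT, a depth-scaled WT to PIP2-1 OE ratio of 42.0 with a 95% counting interval of 11.2 to 354. Os03g0752500 had 2 counts in PIP2-1 OE, against 2441 in WT and 39 in the other WT pair, so the WT pairs themselves differ widely at this locus.

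Around OsPIP2-1 itself, 54 genes start within 500 kb, of which 32 were tested and 12 passed (37.5%, against 44.1% of all genes tested), 8 higher and 4 lower. OsHXK1 lies 113.3 kb upstream of OsPIP2-1. Apart from OsPIP2-1, Os07g0448400 and OsHXK1, the changes in this window were small or rested on low counts: Os07g0445600 was at 21.14 and 19.78 CPM in PIP2-1 OE, against 10.01 and 11.08 CPM in WT (log2 change 0.95, edgeR adjusted p = 2.8e-11), and Os07g0447800 at 77.2 and 77.9 CPM in PIP2-1 OE against 53.15 and 54.45 CPM in WT (log2 change 0.52, adjusted p = 1.11e-11) and missed the threshold against the other WT leaves (adjusted p = 0.676). Os07g0448600, annotated on the span of Os07g0448400, had 23 and 19 counts in PIP2-1 OE, against 1 and 1 in WT. Over the nuclear chromosomes the share of tested genes called higher was lowest on chromosome 6 (21.2%) and highest on chromosome 3 (760 of 3040 genes), and the share called lower was lowest on chromosome 8 (272 of 1516 genes) and highest on chromosome 6 (22.7%).

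The authors' deposited table of their own test marks 5245 genes as significant between WT and PIP2-1 OE, 2187 higher and 3058 lower in PIP2-1 OE. Of these, 4813 also passed here, 4811 of them in the same direction and 2 in the opposite one. For OsPIP2-1 the authors' deposited table gives a log2 change of 1.91 (q = 0.000330), lower than the 3.85 from the counts. For OsPIP2-3 the authors' deposited table gives -1.80 (q = 1, not significant) and for Os07g0448400 -1.92 (q = 0.208, not significant), both opposite in sign to the rise in counts. For the PIP2 gene Os07g0448100 the authors' deposited table gives -1.08 (q = 0.0305, significant), where the counts gave 0.27 and no call. The authors' deposited table marks as significant 2 of the 17 loci present in both overexpression lines alone, and 28 of the 59 loci on in PIP2-1 OE. Signs were the same in both sources for OsSPX1 (2.54 in the authors' deposited table, 2.71 from the counts), RR4 (3.33 and 3.36), NiR (-2.44 and -1.90) and MTI4C (-2.83 and -2.93).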

How the data were processed

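The submitters' processing notes name Trim Galore, HISAT2, Cufflinks, Cuffdiff 2.2.1 and featureCounts, and the rice build IRGSP-1.0. The version of Trim Galore, HISAT2 and Cufflinks is not given in the sources used here. Per the file headers, the deposited count table holds raw counts per gene from featureCounts 1.4.0 on the annotation of Ensembl Plants release 52, counted on the reverse strand, with reads of several mapping places counted at each and reads over several genes left out. The authors' deposited Cuffdiff table gives log2 changes and q-values per gene for each comparison.

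The 12 count columns were mapped to samples by name, and 0 were left over. From the counts, edgeR 4.0.16 in R 4.3.3 fitted its quasi-likelihood model (TMM scaling, filterByExpr, robust) to the 6 libraries of the OsPIP2-1 experiment, with Benjamini-Hochberg adjustment over the 23487 genes tested and a threshold of 0.05. The comparison with the other WT pair came from a fit of 12 libraries. CPM values are on the TMM scale of the 12 libraries, and TPM values are counts scaled by annotated length. The biological coefficient of variation was 3.69%. Replicates differed by more than sampling noise (chi-square per degree of freedom 7.24 in PIP2-1 OE and 2.72 in WT). The script was tested on simulated data. Ratios and their intervals cover counting error only.

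Gene lists were matched on the names in the files, and 20 of 34 aquaporin names cut short there were completed from RefSeq (assembly ASM3414082v1). The members and lists were chosen with earlier results of these data known. Named genes are each PIP gene tested; the 15 largest rises and falls called against both WT pairs with at least 5 CPM; up to 3 called members per list and direction by smallest p; genes on or off; and called genes within 500 kb of OsPIP2-1. A further 20 list members (OsIPS1, OsIPS2, OsSPX2, OsSPX6, OsPAP10a, OsPAP23, SQD2.2, PHF1, PT4, PT8, OsPHR4, NRT2.4, OsNR1, OsNIA2, OsCRD1, OsPAO, OSRR2, RR6, CKX4 and OsMT1c) were named after their values were seen. Promoter sequences were not used here, so a planned count of a promoter motif was not made. Alternatives were RLE scaling, no filter, DESeq2 1.42.0, other sets of libraries, a replicate block, nuclear genes only, the 4 WT libraries as 1 group, and each library left out.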

Additional observations from a re-analysis of the deposited data

How the results depend on the processing

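The 10355 genes called compare with 7861 under DESeq2, 10363 under RLE scaling, 10365 with no filter, 10286 with nuclear genes alone, 10972 with the 4 libraries compared fitted alone and 10810 with all 12 libraries. Leaving out 1 library at a time gave 8206 to 8817 genes called, 4544 to 4781 higher, 3662 to 4036 lower and 1990 to 2108 changed at least 2-fold. With the replicate block 10100 genes were called, and it ended no call among the 138 named genes followed. The replicate numbers were not taken as pairs: the correlation of the differences between the replicates was 0.0357 for PIP2-1 OE and WT, and -0.00345 and -0.0307 for the OsPIP2-1 knockout with PIP2-1 OE and with WT. The log2 change of OsPIP2-6 lost its call under DESeq2 (-0.18, adjusted p = 0.131) and without each of the 4 libraries (adjusted p 0.0752 to 0.158). The log2 change of OsPIP1-3 lost its call without WT replicate 2 (adjusted p = 0.112), as did the PIP2 gene Os07g0448200, and Os07g0448100 gained one with the 4 libraries fitted alone.

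With the 4 WT libraries as 1 group the counts fell to 2061 genes called, 1200 higher and 861 lower, and 802 changed at least 2-fold. By construction, the differences between the WT pairs then enter the spread. Of 138 named genes followed, 73 kept direction and side of the threshold, 60 kept their direction without passing, and 5 turned sign without passing: OsMT2a (log2 change -0.05), OsPIP1-1 (-0.09), PT1 (0.38), PSBS2 (0.14) and OsCRD1 (-0.08). OsIPS2, OsPAP23, NIGT1, OsSPX2 and NRT2.4 kept their direction without passing (edgeR adjusted p = 0.241, 0.138, 0.0931, 0.0515 and 0.0512). OsIPS1, OsSPX1 and TOND1 still passed (edgeR adjusted p = 0.0405, 0.0233 and 0.00557). The counts against both WT pairs (2177 higher and 1633 lower) were put through alternatives chosen after seeing the data, and were 1661 and 1206 with DESeq2, 2171 and 1652 with RLE scaling, and 1866 to 1967 and 1309 to 1419 with each library left out.

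With 2 libraries per group, and the number of lines not given in the labels, differences between lines or plants cannot be told apart from those of the transgene.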
